A study of Mus musculus with 5 samples.

Results

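Cytosolic ribosomal protein genes encode the proteins of the ribosome that works in the cytoplasm. They were taken here as all gene symbols made of Rpl or Rps and a number, with at most a final a or x, together with Rplp0, Rplp1, Rplp2 and Rpsa. The rule left out the Rps6k kinases, pseudogenes and names such as Rpl22l1. It found 77 of 23234 genes, all of them listed in each of the 5 libraries. Of these, 31 belong to the small (40S) and 46 to the large (60S) subunit. The libraries are RNA-seq profiles of sorted bone marrow (BM) cells of C57BL/6 mice aged 7 weeks. All mice carried the +/Ym1Venus genotype, in which the fluorescent protein Venus is made by cells that use the Ym1 gene (Chi3l3). Cells came from mice given 100 µg of LPS intravenously 48 h earlier or from untreated mice. After LPS, Ly6C+CD115+ cells were sorted as Venus+ (Ym1+Ly6Chi monocytes) and as Venus- (Ym1-Ly6Chi monocytes), and Ly6G+ neutrophils were sorted from the same tissue. From untreated mice, naïve monocytes were sorted as Ly6C+CD115+Venus- cells and naïve neutrophils as Ly6G+ cells. Each condition has 1 library, and how many mice were pooled for it was not stated. No difference below therefore has a replicate check or a p-value, and each describes a pair of libraries.

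A ribosome holds one copy of nearly every one of these proteins, the stalk proteins Rplp1 and Rplp2 being the exception. Cells therefore make the proteins in step. Their mRNAs belong to the TOP class, which starts with a tract of pyrimidines (C and T in the DNA) that lets the mTOR pathway, through the protein LARP1, set how much of them is translated. Proliferating precursors in the BM make many ribosomes. Neutrophils stop dividing as they mature, and mature neutrophils are known for a low content of ribosomes and of RNA.

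The sequence at the gene starts is shown because the tract is a feature these genes are known to share. RefSeq promoters (GRCm38.p6) were at hand for 56 of the 77 genes. A start was said to hold a tract where an unbroken run of at least 6 C or T letters overlapped the 11 bases from 5 before to 5 after the annotated first base, on the strand of the gene. Of these 56 genes, 29 (51.8%) had such a start. Of all 27025 genes with a promoter of the same length, 6481 (24.0%) did, and of 5196 other genes that reached 10 FPKM in a library, 1278 (24.6%) did. Annotated starts can lie some bases from the start a cell uses, so a start without a tract says only that the letters are not in this window. The lines below give 30 bases, of which the last 20 begin at the annotated first base. Capitals mark the tract as far as it lies in these bases, and runs outside the window stay in lower case. The genes were chosen for their values below. Rpl28, Rps12 and Rps26 are among the genes of highest level. Rpl12, Rps2 and Rpsa differed most between the neutrophil libraries, whereas Rps27 and Rpl37 differed little, and Rps9 had the highest level in both.
Rpl28 (chr7:4792955-4792984, + strand): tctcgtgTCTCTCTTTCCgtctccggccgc
Rps12 (chr10:23787190-23787219, - strand): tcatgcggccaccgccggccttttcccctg
Rps26 (chr10:128626487-128626516, - strand): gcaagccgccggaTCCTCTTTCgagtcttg
Rpl12 (chr2:32961702-32961731, + strand): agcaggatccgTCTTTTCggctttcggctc
Rps2 (chr17:24720053-24720082, + strand): gtcgagatctcgcgCTTCTTggagcactat
Rpsa (chr9:120127756-120127785, + strand): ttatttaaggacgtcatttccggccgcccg
Rps27 (chr3:90213629-90213658, - strand): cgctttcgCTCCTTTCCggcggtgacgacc
Rpl37 (chr15:5116603-5116632, + strand): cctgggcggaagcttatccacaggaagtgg
Rps9 (chr7:3704031-3704060, + strand): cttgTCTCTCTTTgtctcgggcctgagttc
A tract was thus found in genes of both kinds, those with a large and those with a small difference after LPS.

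Levels are given as FPKM, the fragments of a gene per kilobase of transcript, scaled to the depth of the library, as the authors deposited them. The steps between the lowest values gave each library's depth as a percentage of that of Ym1+ monocytes. It was lowest for Ym1- monocytes, at 44.7%. The naïve monocyte library reached 62.8%, and the neutrophil libraries 80.9% (LPS) and 97.2% (naïve). In the Ym1- library, the shallowest, an FPKM of 100 for a transcript of 500 bases stands for about 214 fragments, with a 95% Poisson interval of 87.1 to 114 FPKM that covers counting error only. Markers of the sorted cells were checked, except Ly6g itself, which was not among the gene symbols listed. Ccr2, a chemokine receptor of monocytes, had an FPKM of 434 to 499 in the monocyte libraries and near 1 in the neutrophil libraries. Not all of the 11 monocyte markers were so distinct. Of these, 8 were at least 2-fold lower in neutrophils after LPS than in Ym1- monocytes (40.8% of all genes). Ly6c2 (1613 and 3175) and Ly6c1 (349 and 681) were lower by less, and Cd14 was higher (22.1 and 12.2). The neutrophil genes S100a8 and S100a9 together took 27.7% of all FPKM in neutrophils after LPS and 29.96% in naïve neutrophils. Among the monocytes they took 2.39% in the Ym1+ library, 0.309% in the Ym1- library and 0.172% in the naïve one.

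Ribosomal protein genes were among the most expressed genes of the monocytes and took a far smaller share in neutrophils. Their summed share of the FPKM was 14.03% in Ym1+ monocytes, 17.1% in Ym1- monocytes and 15.3% in naïve monocytes. It was 4.03% in neutrophils after LPS and 1.92% in naïve neutrophils. Thus the share was 7.998-fold larger in naïve monocytes than in naïve neutrophils and 2.101-fold larger in neutrophils after LPS than in naïve ones. The first of these depends on the other genes in the total. Without the 187 genes that are among the 100 highest other genes of any library it was 3.94-fold, while the second was 2.04-fold. Fewer cells with much of this mRNA and less of it per cell cannot be told apart in bulk libraries. The median gene stood at 885 FPKM in Ym1+ monocytes, 1147 in Ym1- monocytes and 1007 in naïve monocytes, 359 in neutrophils after LPS and 142 in naïve neutrophils. Of the 100 genes with the highest FPKM, 44 were ribosomal protein genes in Ym1+ monocytes, 52 in Ym1- and 49 in naïve monocytes. In neutrophils this number was 8 after LPS and 1 without it. That single gene was Rps9, a small-subunit protein that helps to keep decoding accurate.

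**Figure D1:**
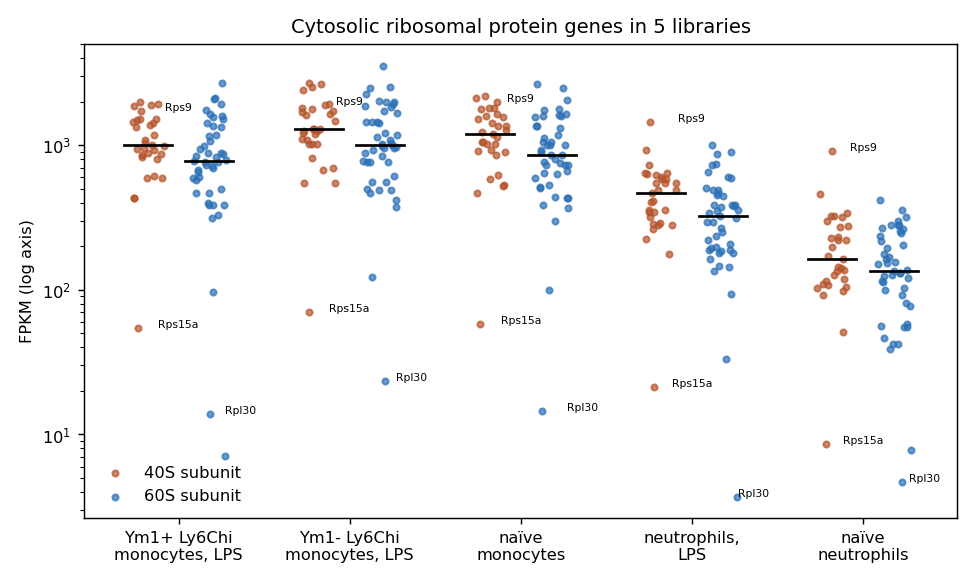
FPKM (log axis) of the cytosolic ribosomal protein genes in each of the 5 libraries, 1 point per gene, with 40S genes in brown and 60S genes in blue. Black lines mark the median of each subunit's genes. Rpl26 is shown for Ym1+ monocytes, where it is the lowest point, and not for the other 4 libraries, where it is below 1 FPKM. The points of the neutrophil libraries lie lower, and Rps9 stands at the top in both (1442 and 909). Rps15a, Rpl30 and Rpl22 are among the lowest points of every library.

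**Figure D2:**
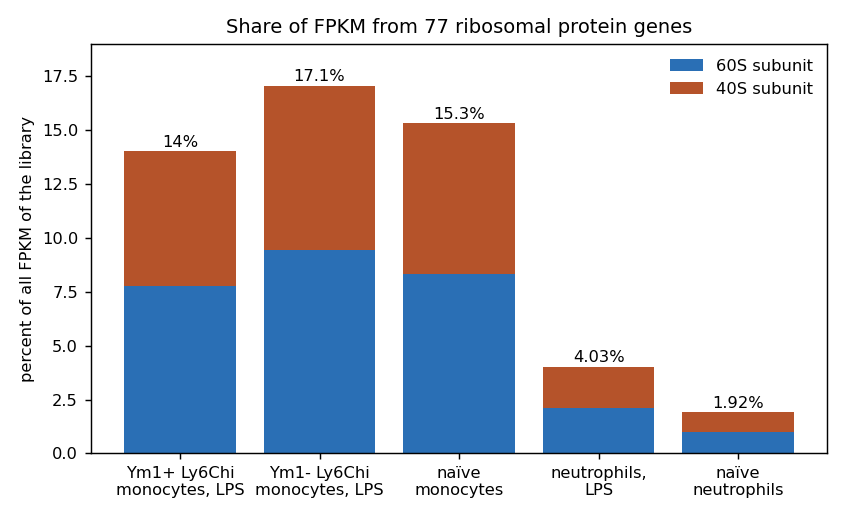
Percent of all FPKM of a library that the 77 genes took, split into 60S (blue) and 40S (brown) genes, 1 library per bar with no replicates. The bars stand at 14.03%, 17.1% and 15.3% in the monocyte libraries and at 4.03% and 1.92% in the neutrophil libraries.

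On the FPKM scale, neutrophils were below monocytes for every gene that could be ordered, while the order of the Ym1+ and naïve monocytes varied among genes. Rpl26 was set aside for this count because its values in 4 libraries are below the worth of 1 fragment. All 76 others had lower levels in both neutrophil libraries than in any monocyte library. In 75 of them, naïve neutrophils were lowest and neutrophils after LPS stood between them and the monocytes. The exception was Rpl30. All 76 were higher in Ym1- than in Ym1+ monocytes. For 68 genes the Ym1- library was the highest of all, and for the other 8, among them Rpl35a, Rpl37a, Rps4x, Rps9 and Rps24, it was the naïve monocyte library. Ym1+ monocytes were above naïve monocytes for some genes, such as Rps2, and below them for most, such as Rps4x. On the scale from naïve neutrophils (0%) to Ym1- monocytes (100%), the FPKM in neutrophils after LPS lay at a median of 19.4%, with a range of -5.09% for Rpl30 to 54.3%. These orders are of FPKM and were counted for ribosomal protein genes only, so no share of all genes stands beside them. The order of neutrophils and monocytes depends on how libraries are scaled. Median-of-ratios size factors were 0.722 for neutrophils after LPS and 1.22 to 1.29 for the monocyte libraries. Divided by them, Rps9 and Rps27a were higher in neutrophils after LPS than in every monocyte library.

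Naïve neutrophils were compared with naïve monocytes to see how the 2 cell types differ without LPS. Differences here and below are of log2(FPKM + 1), and a gene entered a pair if at least 1 of its libraries reached 1 FPKM. All 76 genes that entered were at least 2-fold lower in naïve neutrophils and 0 were higher. Of all 10944 genes compared, 42.7% were lower and 10.8% higher. The median difference was -2.68 for ribosomal protein genes and -0.79 for all genes, so that it lay 1.90 below that of all genes. The background depends on how libraries are scaled. When each was instead divided by a median-of-ratios size factor, all genes had a median of -0.03, with 24.2% lower and 22.3% higher. Ribosomal protein genes then had a median of -1.85, and 69 were at least 2-fold lower.

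The largest of these differences belonged to Rpl10a, Rpl12 and Rpl3. Rpl10a, a protein of the L1 stalk of the large subunit, had an FPKM of 928 in naïve monocytes and 42.2 in naïve neutrophils, a difference of -4.43. For Rpl12, at the base of the stalk that receives translation factors, the FPKM was 1062 and 56.1 (-4.22). Rpl3, which lies near the catalytic centre, was at 734 and 42.2 (-4.09). Rps20 and Rps28, small-subunit proteins, followed with -3.84 and -3.71. At the other end stood Rps9 with an FPKM of 1978 in naïve monocytes and 909 in naïve neutrophils (-1.12), Rpl9 with 631 and 282 (-1.16), and Rps27a with 582 and 234 (-1.31). Rps27a is made as a fusion with ubiquitin, which is cut off to yield the ribosomal protein. Rpl30, Rps27 and Rpl37 had differences of -1.46, -1.46 and -1.51. Of the 76 genes, 12 lay more than 1 from the median of the group, 6 above it and 6 below.

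Ribosomal protein genes had higher levels in neutrophils from LPS-treated mice than in naïve neutrophils. Of 76 genes, 47 were at least 2-fold higher after LPS and 0 were lower, whereas of all 9583 genes compared 8.96% were higher and 5.35% lower. The median difference was 1.21, a 2.32-fold higher level, beside 0.07 for all genes. It was 1.21 with median-of-ratios scaling and 1.09 after each library was rescaled to the same sum. The difference was above 0 in 75 of 76 genes. No count of signs over all genes was made, here or in the pairs below. The middle 50% of the genes lay between 0.87 and 1.56, so the amount differed among genes.

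8 genes were more than 4-fold higher in neutrophils after LPS on the log2(FPKM + 1) scale, against 1.65% of all genes compared. Rpl12 had an FPKM of 384 after LPS and 56.1 in naïve neutrophils, a difference of 2.75. Rps2, a protein at the mRNA entry of the small subunit, was at 735 and 116 (2.66), and Rpsa, also known as the laminin receptor, at 623 and 98.1 (2.65). The group further held Rpl10a (237 and 42.2), Rps19 (265 and 50.9), Rps20 (630.3 and 126), Rpl3 (208 and 42.2) and Rpl36a (266 and 55.8). Rps19 is the gene most often mutated in Diamond-Blackfan anaemia, a failure of red cell production. All 8 had an FPKM of 126 or less in naïve neutrophils. The naïve neutrophil library enters both comparisons, so a low value there appears in both.

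Other genes differed by less than 2-fold between the neutrophil libraries, and Rps27 and Rpl37 were close to equal. Rps27, a zinc finger protein of the small subunit, stood at 490.2 FPKM in the LPS library and 463 in the naïve one, a difference of 0.08. Rpl37 was at 146 and 136 (0.10) and Rpl9 at 354 and 282 (0.33). Rps13 had 348 and 228 (0.60). Rpl30 was the 1 gene with a lower value after LPS, at 3.70 and 4.66. These stand for about 16.4 and 24.8 fragments, and their 95% Poisson intervals (2.13 to 5.98 and 3.01 to 6.89) overlap. Rps9, the highest gene in both, was at 1442 and 909 (0.66). The neutrophil libraries also differed in genes expressed early in granulocyte development, those of azurophil granule proteins and Ms4a3. All 5 of these (Mpo, Elane, Prtn3, Ctsg and Ms4a3) were higher after LPS, with differences of 2.91 to 4.71, and their summed share of FPKM was 0.106% after LPS and 0.00789% without it. Of 6 stem and progenitor markers, 4 were below an FPKM of 1 in each of the 2 libraries, and Kit and Myb were lower after LPS (2.6 and 5.5) than without it (7.0 and 10.5). Of 11 monocyte markers, 5 were below 1 after LPS and 6 without it. Of the 6 that entered, 2 were at least 2-fold higher after LPS and 1 lower, with Cd14 at 22.1 and 3.11 and Csf1r at 10.5 and 33.9. All 4 platelet markers were lower after LPS, with a summed FPKM of 2.94 against 50.8. The 2 erythroid markers that entered were lower too, and the summed FPKM of that list was 7.20 against 25.4. The part of other or younger cells in the difference of the ribosomal protein genes was not tested.

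**Figure D3:**
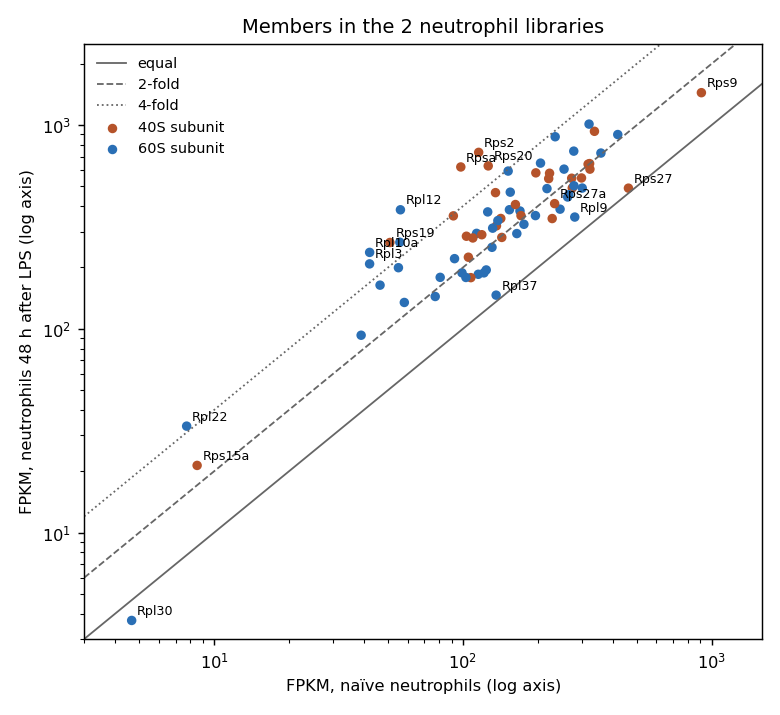
FPKM of each ribosomal protein gene in naïve neutrophils (horizontal) and in neutrophils 48 h after LPS (vertical), both on log axes, with 40S genes in brown, 60S genes in blue and Rpl26 left out. Solid, dashed and dotted lines mark equal, 2-fold and 4-fold higher FPKM after LPS. Rps27 and Rpl37 lie near the line of equal levels, and Rpl12, Rps2 and Rpsa above that of 4-fold. Rpl22 (33.3 and 7.75) is also above that line and was under 4-fold only after 1 was added.

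After LPS, neutrophils were still below Ym1-Ly6Chi monocytes from the same treatment. On the FPKM scale, all 76 genes had a lower value in the neutrophils, 74 of them by at least 2-fold, and 0 were higher. Of all 10676 genes, 40.8% were lower and 11% higher. The median was -1.73 for ribosomal protein genes and -0.74 for all genes. Under the size factors the median was -0.92 and 27 genes were at least 2-fold lower, against 21.3% of all genes (22.1% higher), so that this count rests on the scaling. The 2 genes within 2-fold on the FPKM scale were Rps9, at 1442 in neutrophils and 1891 in Ym1- monocytes (-0.39), and Rps27a, at 412 and 675 (-0.71). Divided by the size factors (0.722 for neutrophils after LPS, 1.27 for Ym1- monocytes), both were higher in the neutrophils. Rpl30 (-2.38), Rpl10a (-2.31) and Rps26 (-2.29), a protein that contacts the mRNA at the exit site, were farthest apart.

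Between the monocyte subsets after LPS, ribosomal protein genes were lower in Ym1+Ly6Chi than in Ym1-Ly6Chi monocytes by a small and even amount. The median difference was -0.32, a 1.25-fold lower level, beside -0.06 for all genes. 0 genes were at least 2-fold lower and 1 was higher, Rpl26. Of all 10489 genes, 1.18% were lower and 1.38% higher. Apart from Rpl26, all differences lay between -0.72 and -0.14, and the middle 50% between -0.37 and -0.27. Rplp1, the highest gene of the monocytes, stood at 2714 FPKM in the Ym1+ and 3560 in the Ym1- library (-0.39). Rpl36 was at 943 and 1421 (-0.59) and Rps26 at 1945 and 2666 (-0.45). Rps9, Rps27a and Rps19 differed least, with -0.14, -0.17 and -0.18. The Ym1+ library also held more of the neutrophil genes. The 11 neutrophil markers found in the files took 2.88% of its FPKM and 0.418% of that of the Ym1- library. Of these, 9 were higher there by 2-fold or more, and all 11 differences lay between 0.345 and 3.37. Other lists also differed between the subsets. Of 3 progenitor markers that entered, 2 were at least 2-fold lower in Ym1+ monocytes, with Cd34 at 0.972 and 4.92 and Flt3 at 0.111 and 1.92. The eosinophil gene Prg2 was listed at 0 in Ym1+ and at 28.0 FPKM in Ym1- monocytes. Both erythroid markers that entered were higher in Ym1+ monocytes, with a summed FPKM of 17.3 for the list against 2.09. The part of these markers' cells in the difference of the ribosomal protein genes was not tested.

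Compared with naïve monocytes, ribosomal protein genes were slightly higher in Ym1- monocytes after LPS and close to equal in Ym1+ monocytes. The same naïve library enters both pairs. In Ym1- monocytes the median difference was 0.23, beside -0.00 for all genes, with 68 genes above 0 and 8 below. 1 of 76 genes was at least 2-fold higher and 0 were lower, against 2.86% and 4.72% of 10714 genes. That gene was Rps2, with an FPKM of 2510 in Ym1- monocytes, 1899 in Ym1+ monocytes and 1190 in naïve monocytes, a difference of 1.08 for Ym1- monocytes that was under 2-fold once each library was rescaled to the same sum. Rpl41, the shortest of the ribosomal proteins, was at 2507 and 1565 (0.68), and Rpl14 at 931 and 593 (0.65). The lowest differences were -0.18 for Rpl37a, -0.10 for Rps24 and -0.08 for Rps29.

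In Ym1+ monocytes the median difference from naïve monocytes was -0.09, beside -0.06 for all genes. Of 77 genes, 20 were above 0 and 57 below. Under median-of-ratios scaling the median was -0.00355, beside 0.0197 for all genes, so that this split rests on the scaling. 1 gene was at least 2-fold higher, again Rpl26, and 0 were lower, against 2.59% and 4.51% of 10698 genes. Rps2 stood highest after Rpl26 with 0.67, followed by Rpl41 with 0.41. Rps4x, the X-linked member, had an FPKM of 1009 in Ym1+ and 1356 in naïve monocytes (-0.43) and Rpl37a 400 and 532 (-0.41). Treatment and gate both differ here and cannot be told apart. Marker lists also differed from naïve monocytes. Of 5 progenitor markers that entered, 3 were at least 2-fold lower in Ym1- monocytes (4.72% of all genes) and 5 in Ym1+ monocytes. Of 11 neutrophil markers, 8 were higher in Ym1+ monocytes and 0 lower. In Ym1- monocytes 1 was higher (2.86% of all genes) and 4 were lower. For both subsets, 2 of 11 monocyte markers were lower and 0 higher. The part of these markers' cells in the differences above was not tested.

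**Figure D4:**
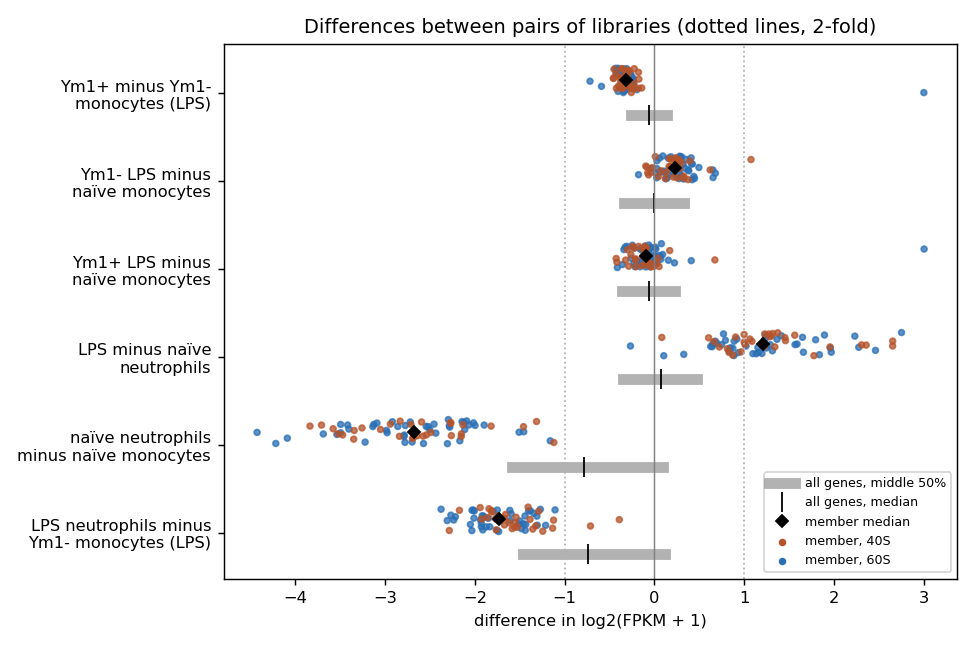
Difference in log2(FPKM + 1) between the libraries of each pair (horizontal axis), 1 point per ribosomal protein gene that entered, with 40S genes in brown and 60S genes in blue. Diamonds mark their median, dotted lines 2-fold, and grey bars with a tick the middle 50% and the median of all genes compared. The points lie close together in the monocyte pairs and widely spread in the pairs with naïve neutrophils, and the lone points near 3 are Rpl26. The grey bars of all genes are also longer in the pairs with neutrophils.

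The genes did not keep the same proportions in neutrophils. Rps9 made up 2.40% of the summed FPKM of the 77 genes in naïve monocytes, 4.61% in neutrophils after LPS and 6.66% in naïve neutrophils. Rps27 made up 1.55%, 1.57% and 3.39%. Rpl10a in turn held 1.13%, 0.759% and 0.309%, and Rplp1 3.23%, 2.80% and 1.72%. The spread of the differences, as the width of the middle 50%, was 0.10 between the monocyte subsets. It was 0.22 and 0.21 for Ym1- and Ym1+ against naïve monocytes and 0.70 between the neutrophil libraries. For naïve neutrophils against naïve monocytes it was 0.89, and for neutrophils after LPS against Ym1- monocytes 0.48. The middle 50% of all genes was wider in each of these pairs. It ran from -0.26 to 0.14 between the monocyte subsets and from -1.59 to 0.09 for naïve neutrophils against naïve monocytes. A wider spread in pairs with neutrophils is thus not particular to ribosomal protein genes. The 40S genes made up 44.8% of the summed FPKM in Ym1+ monocytes, 44.7% in Ym1- monocytes and 45.6% in naïve monocytes, 47.6% in neutrophils after LPS and 48.0% in naïve neutrophils. In neutrophils after LPS against naïve ones, the median difference was 1.23 for 40S and 1.16 for 60S genes, so the medians of the subunits were close.

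The genes with roles beyond the ribosome's core, in its stalk, in 5S RNA binding and in disease, are given next. The P stalk proteins Rplp0, Rplp1 and Rplp2 recruit elongation factors. Rplp0 had an FPKM of 1634 in Ym1+ monocytes, 1982 in Ym1- monocytes, 1632 in naïve monocytes, 651 in neutrophils after LPS and 205 in naïve neutrophils. For Rplp1 the values in this order were 2714, 3560, 2660, 876 and 235, and for Rplp2 1430, 1840, 1770, 608 and 255. All 3 were thus more than 2-fold higher in neutrophils after LPS than in naïve ones. Rpl5 and Rpl11 bind the 5S RNA and, when ribosome assembly fails, the p53 regulator Mdm2. Rpl5 stood at 468, 561, 503, 135 and 58.1, and Rpl11 at 1337, 1724, 1322, 455 and 266. The difference between the neutrophil libraries was 1.20 for Rpl5 and 0.77 for Rpl11. Of 9 genes mutated in Diamond-Blackfan anaemia, among them Rps19, Rps24, Rps26, Rpl5 and Rpl35a, 6 were at least 2-fold higher after LPS, beside 47 of the 76 ribosomal protein genes and 8.96% of all genes. The difference ranged from 0.75 for Rpl35a to 2.36 for Rps19, and nothing particular to these genes can be read from the count.

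Some ribosomal proteins have names that the rule did not cover. Gnb2l1 (Rack1), a signalling scaffold on the small subunit, had an FPKM of 964 in Ym1+ monocytes, 1191 in Ym1- monocytes, 990 in naïve monocytes, 268 in neutrophils after LPS and 85.1 in naïve neutrophils. Fau, which encodes a ubiquitin-like protein fused to a small-subunit protein, had 885, 969, 1080, 586 and 634 in the same order. Its difference between the neutrophil libraries was -0.11, against 1.64 for Gnb2l1. Of the 10 genes of this list, which also holds paralogs such as Rps27l and Rpl22l1, 8 entered this comparison. Of these, 4 were at least 2-fold higher after LPS and 0 lower, against 8.96% and 5.35% of all genes.

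Other genes of protein synthesis differed in the same pairs, though not by the same amounts. Elongation factor genes and Tpt1, whose mRNAs also belong to the TOP class, had a median of 1.06 between neutrophils after LPS and naïve neutrophils (3 of 6 at least 2-fold higher, 0 lower, against 8.96% and 5.35% of all genes) and of -2.74 between naïve neutrophils and naïve monocytes (6 of 6 lower, against 42.7% of all genes). Eef1a1, which brings aminoacyl-tRNA to the ribosome, had an FPKM of 5660 in Ym1+ monocytes, 6642 in Ym1- monocytes, 5464 in naïve monocytes, 1619 in neutrophils after LPS and 603 in naïve neutrophils. Of 29 initiation factor genes, 6 were higher and 1 lower after LPS in neutrophils (8.96% and 5.35% of all genes), with a median of 0.61. In naïve neutrophils 24 of them were lower than in naïve monocytes (median -1.72), again beside 42.7% of all genes. The gene lower after LPS was Eif4a2, at 26.0 against 70.5. Genes of ribosome assembly and rRNA synthesis were also low in naïve neutrophils against naïve monocytes, with a median of -2.67. Of 33, 29 were lower (42.7% of all genes) and 1 higher (10.8%). After LPS, 3 of 27 were higher in neutrophils and 1 lower, shares near those of all genes, with a median of 0.41 beside 1.21 for ribosomal protein genes. Npm1, a nucleolar chaperone, had an FPKM of 371, 593 and 314 in Ym1+, Ym1- and naïve monocytes, 41.7 in neutrophils after LPS and 16.7 in naïve neutrophils. Fbl, the methyltransferase of rRNA, was at 117, 176, 144, 8.9 and 2.4 in this order. No test of the difference between the lists could be made.

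In the monocyte subsets, the median of the assembly genes was -0.57 (Ym1+ against Ym1-), beside -0.32 for ribosomal protein genes, with 2 of 33 at least 2-fold lower (1.18% of all genes) and 0 higher, and all 33 differences were below 0. In Ym1- against naïve monocytes it was 0.46, with 2 higher (2.86% of all genes) and 0 lower, and in Ym1+ against naïve monocytes 0.02. Ribosomal protein genes of the mitochondrion, which form a separate ribosome, had medians of -0.28 (Ym1+ against Ym1-), 0.54 (Ym1- against naïve) and 0.23 (Ym1+ against naïve), with 0, 2 and 0 of 76 genes at least 2-fold higher, against 1.38%, 2.86% and 2.59% of all genes. Between the neutrophil libraries 12 of 75 were higher after LPS (8.96% of all genes) and 0 lower, with a median of 0.51, and 58 of 76 were lower in naïve neutrophils than in naïve monocytes (42.7% of all genes), with a median of -1.64. Mrpl33, the highest of them, had an FPKM of 182 in neutrophils after LPS and 209 in naïve neutrophils. Of 13 genes that control translation in growing cells, 1 was higher in neutrophils after LPS and 0 lower, a share near the 8.96% of all genes. This was Larp1, the regulator of TOP mRNAs, at 14.5 against 5.76, with 43.6, 51.2 and 38.2 in Ym1+, Ym1- and naïve monocytes. Myc, a transcription factor that drives ribosome production, was at 7.22 in Ym1+ monocytes, 13.8 in Ym1- monocytes, 18.6 in naïve monocytes and 1.02 and 0.63 in the neutrophil libraries.

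**Figure D5:**
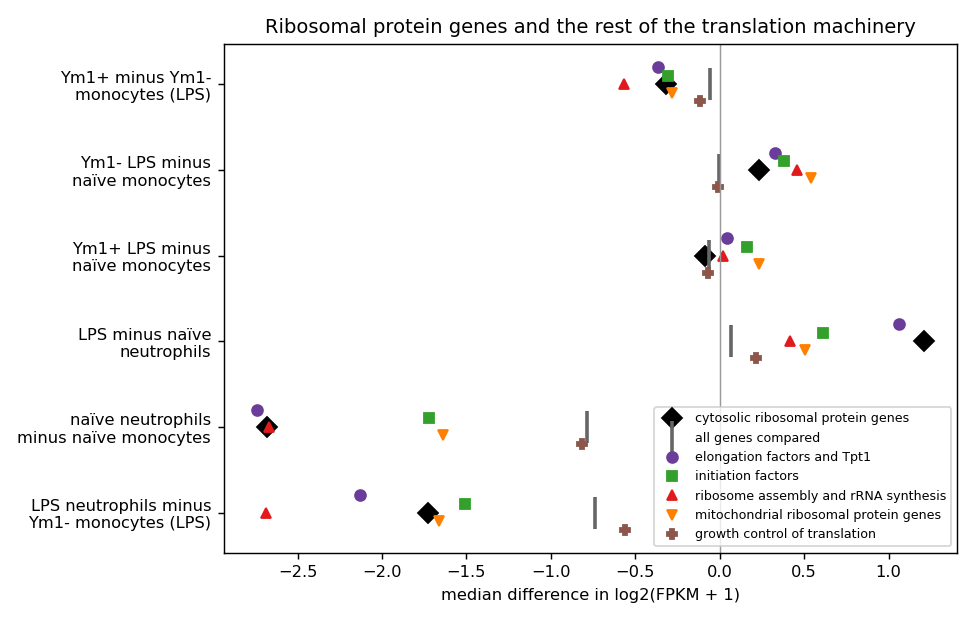
Median difference in log2(FPKM + 1) in each pair of libraries (horizontal axis) for ribosomal protein genes (diamonds), for all genes compared (grey ticks) and for 5 lists of related genes (other symbols). Between the neutrophil libraries, ribosomal protein genes (1.21) and elongation factor genes (1.06) lie to the right of the assembly genes (0.41).

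Rpl26, Rpl30, Rps15a and Rpl22 had the 4 lowest mean levels over the libraries, although the ribosome holds their products as well. Rpl26 had an FPKM of 7.05 in Ym1+ monocytes and of 0.00503 or less in the other 4 libraries, less than 1 fragment is worth. Its difference of 3.0 between the monocyte subsets therefore rests on about 38.3 fragments in 1 library. Rpl30 was at 13.9, 23.4 and 14.5 in Ym1+, Ym1- and naïve monocytes, Rps15a at 54.4, 70.2 and 58.5, and Rpl22 at 97.1, 123 and 101. The mouse genome holds many processed pseudogenes of ribosomal protein genes, and no source used here gives how reads shared with such copies were counted. Levels of single genes on the FPKM scale are therefore uncertain, as are those of Rpl36a and its near-identical paralog Rpl36al, which may share reads. The latter was at 274 in neutrophils after LPS and 50.5 in naïve neutrophils, close to the values of Rpl36a.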

How the data were processed

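5 RNA-seq libraries, 1 per condition, were analysed, and groups were taken from the sample titles. The authors deposited 1 FPKM value for each gene symbol and library. TopHat2 2.0.8, Cufflinks 2.1.1 and the mm9 build are listed in the submitters' processing notes. Options and annotation: not given in the sources used here. Because FPKM is already scaled by length and depth, no count model was used.

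For 6 pairs of libraries, log2(FPKM + 1) was subtracted with Python 3.11.15, numpy 2.4.6 and pandas 2.3.3. Genes under 1 FPKM in both libraries of a pair were left out, and differences of 2-fold or more were tallied. No test is possible without replicates. Of these steps, only the 2-fold call was tried on simulated data, with planted changes above 2-fold and counting error alone. Shares, depth, scaling and genes under 10 FPKM were not covered. Ribosomal protein genes and gene lists were chosen with earlier results of these data known. Relative depth is the most frequent ratio of values under 0.5 FPKM in a pair of libraries, and fragments rest on GENCODE M21 transcript lengths. Genes were named by level (5 highest and 5 lowest), by difference (3 at each end of a pair, FPKM of at least 10), by lying over 1 from the median, or by role. Not all named by this rule are printed, and some items are not reported here. Of the genes, 76 of 77 matched a RefSeq symbol of GRCm38.p6, a later build than that of the files, and coordinates refer to the promoter sequences alone. Alternatives tried were another pseudocount, other filters, scalings, thresholds and denominators, and leaving out Rpl26.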

Additional observations from a re-analysis of the deposited data

Results flagged for a closer look

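For 9 of 76 ribosomal protein genes, the difference between LPS and untreated mice had opposite signs in neutrophils and in Venus- monocytes. This was counted for ribosomal protein genes only, so no share of all genes stands beside it. The count follows from the 8 genes below 0 in monocytes and the 1 gene below 0 in neutrophils. Nothing particular to these genes can be read from it. With 1 library per condition the contrast between the cell types was not tested, and most of the monocyte values are near 0. 8 genes were higher after LPS in neutrophils and lower in monocytes, of which those reported here follow. In log2(FPKM + 1), Rps24 was 1.37 higher in neutrophils, beside -0.10 in monocytes. Rps4x was at 1.32 and -0.07, and Rps29 at 1.0 and -0.08. Rpl35a stood at 0.75 and -0.04, Rps9 at 0.66 and -0.06, and Rpl37a at 0.64 and -0.18. Rps27 was near 0 in both, at 0.0826 and -0.02. Rpl30 alone was lower in neutrophils (-0.27) and higher in monocytes (0.65), at the low fragment numbers given above.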

How the results depend on the processing

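No paired analysis was possible because each condition has 1 library. No alternative turned the direction of a median. Of 42 alternative values of the median difference 37 moved by less than 0.1, and all 15 of the 40S share by less than 1.1 times. Most of the 42 kept the scaling, and another pseudocount or filter could hardly move genes of such levels. The 5 that moved all came from other scalings, in pairs with neutrophils. For Ym1+ against naïve monocytes, the median went from -0.09 to -0.00355 under median-of-ratios size factors. Rescaled to the same sum (TPM), the median was 1.09 between neutrophils after LPS and naïve neutrophils, -3.09 for naïve neutrophils against naïve monocytes and -2.18 for neutrophils after LPS against Ym1- monocytes. Under median-of-ratios size factors the latter 2 were -1.85 and -0.92, with 27 genes at least 2-fold lower in the last pair. Without S100a8 and S100a9 in the total, the share of ribosomal protein genes was 5.58% in neutrophils after LPS and 2.74% in naïve neutrophils. Without the 187 genes that are among the 100 highest other genes of any library, it was 20.5% in Ym1+ monocytes, 23.5% in Ym1- monocytes, 22.0% in naïve monocytes, 11.4% in neutrophils after LPS and 5.59% in naïve neutrophils. At 1.5-fold, 72 genes were higher in neutrophils after LPS (20.4% of all genes), 5 in Ym1- (11.9%) and 2 in Ym1+ monocytes (7.71%) against naïve ones, and 2 were lower in Ym1+ than in Ym1- monocytes (5.93%), so that the monocyte counts lie below the shares of all genes. At 4-fold, 8 were higher in neutrophils after LPS (1.65% of all genes), and 13 of 76 were lower in them than in Ym1- monocytes, near the 13% of all genes. For Ym1- against naïve monocytes the count of higher genes was 0 at 4-fold and 0 with TPM. Without Rpl26, a choice made after the data were seen, 0 genes were 2-fold higher in Ym1+ monocytes in either of its pairs. No ribosomal protein gene was listed at exactly 0, so that leaving out such genes changed nothing. The cause of these shifts was not tested. Low fragment numbers limit what can be said of Rpl30 and Rpl26.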

Other observations

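Transcript length was not closely related to the differences. Across ribosomal protein genes with a GENCODE length (75 of 77, points that share their libraries), the correlation of log2 length with the difference was 0.23 between neutrophils after LPS and naïve neutrophils and -0.22 between naïve neutrophils and naïve monocytes. Genes with and without a pyrimidine tract at the annotated start differed by like amounts between the neutrophil libraries, with medians of 1.23 for 29 genes with a tract and 1.17 for 26 without. For naïve neutrophils against naïve monocytes the medians were -2.71 and -2.63. No test of these values was made.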
